A study of Mus musculus with 12 samples.

Results

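Interferon-stimulated genes are the genes that cells switch on when interferons bind their receptors, and 45 of them were followed here in mouse hearts. They were taken by gene symbol from a table of 25171 loci, all 45 were found in it, and all 45 passed the filter on low counts in every comparison. A total of 37 were placed in a type I-like class (antiviral effectors, nucleic acid sensors and transcription factors) and 8 in a class of interferon-inducible GTPases (Gbp2, Gbp3, Gbp7, Igtp, Irgm1, Irgm2, Iigp1 and Tgtp1).

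All mice carried a conditional human NOTCH2NLC transgene with 98 GGC repeats at the Rosa26 locus, kept silent by a floxed stop cassette. In EIIa-tg mice the cassette was removed by Cre under the EIIa promoter (spelled E2a in the labels), which acts in the early embryo and so in nearly all tissues, and EIIa-ctl littermates lacked this Cre. Both groups were killed at postnatal day 30. Myh6-tg and Myh6-ctl mice both carried Myh6-creERT2, a Cre that is made in cardiomyocytes and needs tamoxifen, and both were killed at day 90. Myh6-tg mice received 3 injections of tamoxifen at 75 mg/kg from day 60, and Myh6-ctl mice received corn oil, so that tamoxifen and the transgene cannot be told apart in this model. There were 3 hearts per group and 12 in all. The genotype labels of EIIa-tg replicates 2 and 3 differ from that of replicate 1, and these hearts were grouped by their titles. The labels do not say whether the 3 hearts of a group came from separate litters, so p-values measure the spread between these hearts.

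Type I interferons (alpha and beta) bind IFNAR1 and IFNAR2, and the kinases JAK1 and TYK2 then activate STAT proteins, among them STAT2, which join IRF9 and bind the interferon-stimulated response element (ISRE) in promoters. Interferon gamma binds IFNGR1 and IFNGR2 and acts through the gamma-activated sequence (GAS) in promoters and induces IRF1 and the GTPases above most strongly. Many of these genes also have a basal level in tissue without infection.

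Each heart had between 38343106 and 50969834 counts. Values within a gene are given as normalised CPM, the reads relative to the TMM-scaled total of the heart, and levels of different genes are set side by side as FPKM, which is also scaled to transcript length. A count of 3, used as the floor, corresponds to 0.0589 to 0.0782 CPM. No pair of hearts held the same library, since at most 2.84% of genes had equal counts in 2 hearts. The cardiomyocyte markers had a summed level of 11340 to 54680 CPM over the 12 hearts, and heart is the labelled source, although a protocol label names brain. Mitochondrial genes took 34.2 to 36.7% of the counts in EIIa-ctl, 28.5 to 32.4% in EIIa-tg, 31.8 to 38.3% in Myh6-ctl and 15.5 to 18.6% in Myh6-tg hearts.

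Promoter sequences of RefSeq, which run from 250 bases before to 50 bases after a gene's start in GRCm38.p6, were given for 34 of the 45 members (39 promoters). The ISRE was searched as GAAA, any 2 bases and GAAA on both strands and the GAS as TTCNNNGAA, which reads the same on both strands. The ISRE letters were in 22 of the 39 member promoters (56.4%) and in 3.44% of 32851 promoters of all genes. The GAS letters were in 12 of the 39 (30.8%) and in 8.3% of all. In the GTPase class 7 of 8 promoters (87.5%) held the ISRE letters. These 8 promoters belong to 7 genes, and all 7 genes had a promoter with the ISRE letters. In the type I-like class 15 of 31 promoters (48.4%) held them. The motifs overlapped each other in 2 member promoters. A GAS followed closely by an ISRE, with 9 to 16 bases between their starts, was in 4 of the 39 member promoters (10.3%) and in 12 of all 32851 (0.0365%). These 4 windows of 30 bases are shown because their genes, Tgtp1, Irgm2, Igtp and Bst2, all passed the test in Myh6-tg hearts below. Each is written 5′ to 3′ on the gene's strand (GRCm38.p6), with both motifs in capitals:
Tgtp1, chr11:48992309-48992338, minus strand: ccatTTCCAGGAAtcGAAACTGAAAcctac
Irgm2, chr11:58214898-58214927, plus strand: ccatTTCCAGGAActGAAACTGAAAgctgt
Igtp, chr11:58199507-58199536, plus strand: ccatTTCTAGGAActGAAACTGAAAgctgt
Bst2, chr8:71537583-71537612, minus strand: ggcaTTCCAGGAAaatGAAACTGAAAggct

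The Igtp and Irgm2 windows had 29 of 30 bases the same, Tgtp1 had 25 the same as Irgm2 and 24 the same as Igtp, and Bst2 had 13 to 14 the same as the others. The starts of the GAS and the ISRE were 11 bases apart in Tgtp1, Irgm2 and Igtp and 12 in Bst2. For other members on which the results turn, the window around the ISRE is shown with its letters in capitals, and for Irf1 the window around the GAS:
Gbp3, chr3:142559989-142560018, plus strand: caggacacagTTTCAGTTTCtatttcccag
Gbp7, chr3:142530273-142530302, plus strand: gtgtgtgcagTTTCAGTTTCagttctccat
Gbp2, chr3:142620594-142620623, plus strand: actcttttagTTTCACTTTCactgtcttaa
Isg15, chr4:156200871-156200900, minus strand: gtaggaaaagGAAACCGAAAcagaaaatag
Oas1a, chr5:120907526-120907555, minus strand: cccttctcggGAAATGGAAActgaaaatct
Ifit3b, chr19:34607759-34607788, plus strand: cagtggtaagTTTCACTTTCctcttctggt
Irf1, chr11:53769914-53769943, plus strand: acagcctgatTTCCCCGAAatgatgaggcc

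The Ifit3 window (chr19:34583363-34583392, plus strand) has the same 30 letters as that of its near copy Ifit3b. These matches describe letters and do not show that a factor binds there. Promoters of Zbp1, Oas2, Mx1, Mx2, Iigp1, Usp18, Ifi27l2a, Parp9, Parp14, Rtp4 and Dhx58 were not used here.

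The 3 members with the highest mean FPKM over all hearts were Ifitm3 (164), Ifi27l2a (50.4) and Lgals3bp (40.9), and the 3 lowest were Oas3 (0.230), Mx1 (0.503) and Mx2 (0.815).

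**Figure D1:**
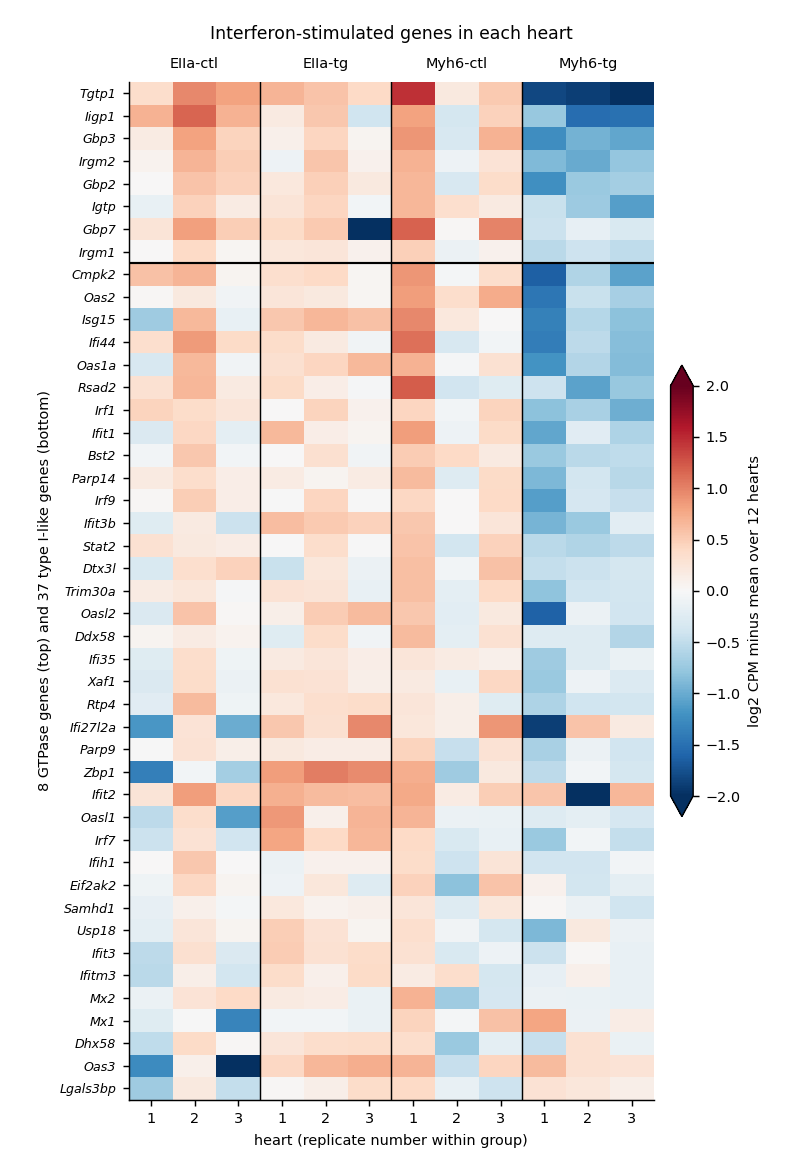
Level of each of the 45 interferon-stimulated genes in each of the 12 hearts, as log2 normalised CPM minus the gene's mean over all hearts, with the GTPases above the line, the type I-like genes below it and hearts in columns by group (colours stop at 2 in either direction). The 3 Myh6-tg hearts are low for all 8 GTPases, and the EIIa-tg hearts are high for Zbp1, Ifit3b and Irf7.

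The comparison of EIIa-tg with EIIa-ctl hearts asks how these genes differ when the repeat is expressed in nearly all tissues. Of the 45 members, 26 had a higher level in EIIa-tg (51.4% of all genes did) and 19 a lower one (48.6% of all genes), and 3 rose: Zbp1, Ifit3b and Irf7 (edgeR quasi-likelihood test, Benjamini-Hochberg adjusted p under 0.05 over 14908 genes). Among all genes tested 8.65% rose, and 3 of 45 is near that share. No member fell by edgeR, against 8.3% of all genes, while 1 (Iigp1) fell by DESeq2, where 1715 of 19490 genes fell and 1777 rose. At an unadjusted p under 0.05, 8 members were higher and 1 (Iigp1) lower, against 17.5% and 17.4% of all genes. The median log2 fold change was 0.05 over the members and 0.02 over all genes, and by class it was 0.15 for the type I-like genes and -0.20 for the GTPases. In whole-heart RNA, more cells of a type cannot be told apart from more RNA per cell, nor fewer cells from less RNA per cell.

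Zbp1 (chr2:173206612-173218923, minus strand, GRCm38) encodes a sensor of Z-form nucleic acid that can start inflammatory cell death. Its normalised CPM was 1.12, 2.76 and 1.79 in EIIa-ctl and 5.10, 5.86 and 5.55 in EIIa-tg hearts. Every EIIa-tg heart lay above every EIIa-ctl heart, and the rise was 2.91-fold (log2 fold change 1.54, SE 0.32, adjusted p = 0.0227). Irf7 (chr7:141262706-141266481, minus strand) encodes the transcription factor that amplifies interferon alpha production. It was at 20.5, 33.8 and 21.3 normalised CPM in EIIa-ctl and at 48.2, 36.8 and 44.0 in EIIa-tg hearts, a 1.70-fold rise (log2 fold change 0.76, SE 0.20, adjusted p = 0.0379). The highest control, replicate 2, came close to the lowest EIIa-tg heart. Ifit3b (chr19:34607970-34613401, plus strand) encodes a member of the IFIT proteins, which bind viral RNA and hold back its translation. Its levels were 5.83, 7.79 and 5.11 normalised CPM in EIIa-ctl and 10.6, 9.95 and 9.53 in EIIa-tg, a 1.60-fold rise with no overlap (log2 fold change 0.68, SE 0.18, adjusted p = 0.0374). Of its transcript, 27.4% of the 100-base words also occur in other genes, mainly Ifit3, so reads could be shared between them.

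These 3 calls rested on few hearts. Without EIIa-ctl replicate 1, EIIa-ctl replicate 3, EIIa-tg replicate 1 or EIIa-tg replicate 3, no member passed. Without EIIa-ctl replicate 2, the control with the highest level of all 3 genes, 10 members rose, among them Ifi27l2a, Ifitm3, Isg15 and Lgals3bp. Of all genes, 1009 of 15358 rose in that fit. No gene of all those tested passed when replicate 1 of either EIIa group was left out, so the calls in EIIa-tg hearts given below for other genes are lost there as well.

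Other members had values in the same direction that did not pass. Ifi27l2a, a small interferon-induced membrane protein, was at 8.97, 24.3 and 10.2 normalised CPM in EIIa-ctl and 29.4, 25.1 and 39.3 in EIIa-tg (log2 fold change 1.10, SE 0.36, adjusted p = 0.0677). The groups did not overlap, but EIIa-ctl replicate 2 came within 1 CPM of the lowest EIIa-tg heart. Ifitm3, which blocks the fusion of viruses with endosomes, was at 75.9, 120.0 and 85.2 in EIIa-ctl and 142, 118 and 143 in EIIa-tg, where the groups overlapped (log2 fold change 0.51, adjusted p = 0.0705). Lgals3bp, a secreted glycoprotein that binds galectins, was at 46.0, 86.4 and 54.0 and at 77.0, 81.6 and 97.5 (log2 fold change 0.45, adjusted p = 0.179), again with overlap at control replicate 2. All 4 IFIT genes (Ifit1, Ifit2, Ifit3, Ifit3b) and all 5 OAS genes, which make or resemble enzymes that make the 2-5A signal for RNA decay, had positive values, with median log2 fold changes of 0.40 and 0.32. Of the OAS genes Oas3 had the largest value, 1.45 (SE 0.60, adjusted p = 0.124), at a low level. Isg15, a ubiquitin-like protein joined to other proteins, had 0.55 (adjusted p = 0.236), and its protease Usp18 was also positive. Oasl1 had 0.88 and Ifit3 0.52, and the members not given here lay between -0.37 (Ifi44) and 0.33 (Mx1), none of them past the test.

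The largest value in the other direction was that of Iigp1, a GTPase that attacks the vacuoles of intracellular parasites. It was at 46.0, 63.2 and 45.8 normalised CPM in EIIa-ctl and 32.3, 41.0 and 21.4 in EIIa-tg hearts (log2 fold change -0.71, SE 0.23, adjusted p = 0.0691). All EIIa-tg hearts lay below all EIIa-ctl hearts, the 1 member with this pattern, whereas 5 members (Zbp1, Ifit3b, Irf7, Ifi27l2a and Oas3) lay wholly above. Over all genes tested, 20.8% lay wholly below and 20.3% wholly above. Of the 8 GTPases, 6 had negative values, and as a median over the class their levels were 78.8 to 102% of the control mean in EIIa-tg hearts against 79.5 to 120% in the controls themselves. Of the transcription factors other than Irf7, Irf1 (log2 fold change -0.16), Irf9 (-0.07) and Stat2 (-0.09) were near their controls. Gbp7 had -0.63 (adjusted p = 0.587), set by EIIa-tg replicate 3, where it was at 0.980 normalised CPM against 15.7 to 23.5 in the other EIIa hearts. Without that heart its value was -0.09 (this gene was chosen after its values were seen).

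Markers of several cell types moved with this comparison. Cardiomyocyte markers summed to 45150 to 54680 CPM in EIIa-ctl and 23460 to 39700 CPM in EIIa-tg hearts, and 9 of 10 had lower values (median log2 fold change -0.76), 2 of which passed. Of 13 markers of leukocytes and macrophages 12 rose, and their summed level was 528.8 to 807.5 CPM in EIIa-ctl and 1112 to 1460 CPM in EIIa-tg hearts. The monocyte markers summed to 8.04 to 12.9 CPM and 17.3 to 21.9 CPM, and 2 of 5 rose. Neutrophil markers summed to 2.12 to 2.37 and 5.09 to 6.62 CPM, and 2 of the 4 tested rose. Fibroblast markers summed to 1426 to 2065 and 2625 to 3797 CPM with 2 of 7 risen, endothelial markers to 1023 to 1176 and 825 to 897 CPM with 3 of 8 fallen, and T and NK cell markers to 2.81 to 4.51 and 3.82 to 5.94 CPM. The part of these cells in the levels of Zbp1, Irf7 and Ifit3b was not tested.

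The comparison of Myh6-tg with Myh6-ctl hearts asks the same of expression in cardiomyocytes alone. Here 42 of the 45 members had a lower level in Myh6-tg hearts (47.9% of all genes did) and 3 a higher one (52.1% of all genes). A total of 15 fell, and 0 rose (edgeR quasi-likelihood test, Benjamini-Hochberg adjusted p under 0.05 over 15298 genes). Among all genes tested, 9.38% fell and 8.96% rose. At an unadjusted p under 0.05, 26 members were lower and 0 higher, against 16.8% and 17.2% of all genes. By DESeq2 23 members fell and 0 rose, while 2055 of 20052 genes fell and 1818 rose. The median log2 fold change of the members was -0.79, against 0.03 over all genes. At the study's threshold (adjusted p under 0.01 and a change of at least 1 on the log2 scale) 1 member, Tgtp1, was called, and 2.05% of all genes were called lower and 1.92% higher. In 27 members every Myh6-tg heart lay below every Myh6-ctl heart, a pattern of 19.6% of all genes, and in none did they lie wholly above (20.6% of all genes).

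The scaling of the libraries moved these values. With total counts in place of TMM the log2 fold change had a median of 0.43 over the genes tested and of -0.37 over the members, 33 members had lower values, and 4 fell (Gbp3, Igtp, Iigp1 and Tgtp1). The distance between the medians was then little changed, and Ifit3, Irf7, Mx1, Mx2, Usp18, Ifih1, Ifitm3, Eif2ak2 and Samhd1 turned from lower to higher.

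Of the 8 GTPases 7 fell, against 9.38% of all genes. All 8 had lower values (47.9% of all genes), with a median log2 fold change of -1.18. The 3 Myh6-tg hearts lay below the 3 controls in each of the 8 (19.6% of all genes). As a median over the class, levels were 42.8, 42.7 and 40.8% of the control mean in the Myh6-tg hearts and 65.1 to 129% in the Myh6-ctl hearts. Tgtp1 (chr11:48985327-48994172, minus strand), an interferon-inducible GTPase that coats pathogen vacuoles, showed the largest fall of all members. It was at 34.9, 14.6 and 18.3 normalised CPM in Myh6-ctl hearts and at 3.59, 3.43 and 2.69 in Myh6-tg hearts, 6.97-fold lower (log2 fold change -2.80, SE 0.36, adjusted p = 0.00436). The highest Myh6-tg heart was far below the lowest control. Because 83.3% of its 100-base words occur in other transcripts, mainly those of its near copy Tgtp2, the share of reads that belongs to each gene is uncertain. Tgtp2, which is not a member, was at 45.0, 21.4 and 26.4 and at 4.21, 5.25 and 5.05 normalised CPM.

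Irgm2 and Igtp are immunity-related GTPases of the same locus on chromosome 11. Irgm2 was at 43.5, 25.1 and 32.5 normalised CPM in Myh6-ctl and 14.7, 13.4 and 15.8 in Myh6-tg hearts (log2 fold change -1.21, SE 0.23, adjusted p = 0.0139). Igtp was at 29.7, 23.7 and 21.4 and at 13.9, 11.4 and 8.80 (log2 fold change -1.14, SE 0.23, adjusted p = 0.0160). Neither gene's groups overlapped, but their exons overlap on the same strand, so some reads could be counted for either. Iigp1 was at 49.2, 22.3 and 39.1 in Myh6-ctl and 16.7, 9.81 and 10.1 in Myh6-tg (log2 fold change -1.60, SE 0.34, adjusted p = 0.0189). Irgm1, which limits the other GTPases of this family, had -0.66 (adjusted p = 0.0534) and was the GTPase that did not pass.

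Gbp3, Gbp2 and Gbp7 are guanylate-binding proteins, which assemble on pathogens and their vacuoles. Gbp3 (chr3:142560026-142573209, plus strand) was at 31.1, 13.6 and 27.5 normalised CPM in Myh6-ctl and 7.11, 8.74 and 8.18 in Myh6-tg hearts (log2 fold change -1.59, SE 0.31, adjusted p = 0.0150). Myh6-ctl replicate 2 was the lowest control for Gbp3, Tgtp1, Iigp1 and Irgm2, and still above all Myh6-tg hearts. Gbp2 fell by 1.15 on the log2 scale (SE 0.28, adjusted p = 0.0290), and Gbp7 by 1.11 (SE 0.30, adjusted p = 0.0391, and 0.0565 with the replicate block).

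Of the 37 type I-like genes, 34 had lower values, 8 fell, and 19 lay wholly below the controls, with a median log2 fold change of -0.51. Of all genes, 47.9% had lower values, 9.38% fell and 19.6% lay wholly below. The median level of the type I-like genes was 57.0, 71.3 and 69.9% of the control mean in the Myh6-tg hearts and 77.1 to 123% in the Myh6-ctl hearts. Among the transcription factors Irf1 (chr11:53770014-53778374, plus strand), which drives the GTPases after interferon gamma, was at 35.5, 25.3 and 35.9 normalised CPM in Myh6-ctl and 15.0, 16.8 and 13.4 in Myh6-tg (log2 fold change -1.10, SE 0.20, adjusted p = 0.0124). Irf9, the DNA-binding part of the type I complex, was at 32.6, 24.5 and 32.4 and at 11.4, 19.5 and 17.7 (log2 fold change -0.88, SE 0.24, adjusted p = 0.0433, and 0.0529 with the replicate block). Both had groups that did not overlap. Stat2, the partner of IRF9, was at 26.7, 13.9 and 24.7 and at 12.4, 11.9 and 12.4, where replicate 2 of Myh6-ctl lay just above the Myh6-tg hearts (log2 fold change -0.83, adjusted p = 0.0597). Irf7 was at 36.5, 22.4 and 25.1 and at 16.6, 26.7 and 20.0, with overlap (log2 fold change -0.41, adjusted p = 0.306).

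Bst2 (chr8:71534255-71537456, minus strand) encodes tetherin, which holds budding virus at the cell surface. It was at 33.3, 30.8 and 26.6 normalised CPM in Myh6-ctl and 14.0, 16.1 and 16.6 in Myh6-tg hearts, and its groups were well apart (log2 fold change -0.96, SE 0.17, adjusted p = 0.0118). Oas2 (chr5:120730333-120749853, minus strand) was at 19.5, 14.0 and 18.4 and at 4.04, 8.09 and 6.95 (log2 fold change -1.44, SE 0.29, adjusted p = 0.0166). Oas1a was at 10.3, 6.29 and 7.89 and at 2.80, 4.27 and 3.50 (log2 fold change -1.21, SE 0.29, adjusted p = 0.0272). Both OAS genes had no overlap, and 40.9% of the 100-base words of Oas1a occur in other transcripts, mainly Oas1g. Oasl1 (-0.46), Oasl2 (-0.79) and Oas3 (0.11) did not pass. Cmpk2, a mitochondrial nucleotide kinase, fell from 22.5, 11.9 and 15.5 to 3.95, 8.01 and 5.83 normalised CPM (log2 fold change -1.49, SE 0.34, adjusted p = 0.0226). Isg15 fell from 10.4, 6.16 and 5.39 to 2.09, 3.60 and 3.03 (log2 fold change -1.33, SE 0.35, adjusted p = 0.0372, and 0.0580 with the replicate block). Dtx3l, a ubiquitin ligase that works with PARP9, fell by 0.82 on the log2 scale (SE 0.22, adjusted p = 0.0377), and its exons overlap those of Parp9 on the other strand.

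Of the 27 members whose Myh6-tg hearts all lay below the controls (19.6% of all genes did), 12 did not pass. These were Irgm1, Stat2, Parp14 (log2 fold change -0.88), Trim30a (-0.82), Ifit1 (-1.01), Ifit3b (-0.88), Ifi44 (-1.25), Rsad2 (-1.10), Ddx58 (-0.65), Ifi35 (-0.52), Rtp4 (-0.51) and Oasl1, with adjusted p from 0.0522 upward. Ddx58 encodes the RNA sensor RIG-I and Rsad2 the antiviral enzyme viperin. Ifit3b was at 10.1, 6.94 and 8.18 normalised CPM in Myh6-ctl and 3.61, 4.12 and 5.96 in Myh6-tg (adjusted p = 0.0664).

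The remaining members overlapped between the groups and did not pass. Zbp1 was at 4.77, 1.76 and 3.28 normalised CPM in Myh6-ctl and 2.01, 2.76 and 2.25 in Myh6-tg (log2 fold change -0.48, adjusted p = 0.459). Ifi27l2a was at 23.5, 22.0 and 37.2 and at 5.47, 29.8 and 22.8 (-0.51), with 1 low Myh6-tg heart, replicate 1. The antiviral GTPase Mx1 was at 2.04, 1.45 and 2.24 and at 2.56, 1.37 and 1.65 (-0.04), near equal in both groups. Ifitm3 was at 124, 141 and 85.9 and at 98.2, 118 and 99.8 (-0.15). Lgals3bp was at 99.4, 68.0 and 56.8 and at 92.0, 87.8 and 81.9 (0.22), the largest positive value among the members. The RNA and DNA sensors and effectors Ifih1 (-0.37), Dhx58 (0.07), Eif2ak2 (-0.34) and Samhd1 (-0.25) and the genes Mx2 (-0.14), Usp18 (-0.20), Ifit3 (-0.17), Xaf1 (-0.51) and Parp9 (-0.51) overlapped their controls as well. Ifit2 had -0.47 (adjusted p = 0.798), which came from Myh6-tg replicate 2, where it was at 0.260 normalised CPM against 25.9 and 27.9 in the other Myh6-tg hearts and 19.9 to 30.0 in Myh6-ctl. Without that heart its value was 0.11 (this gene was chosen after its values were seen).

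**Figure D2:**
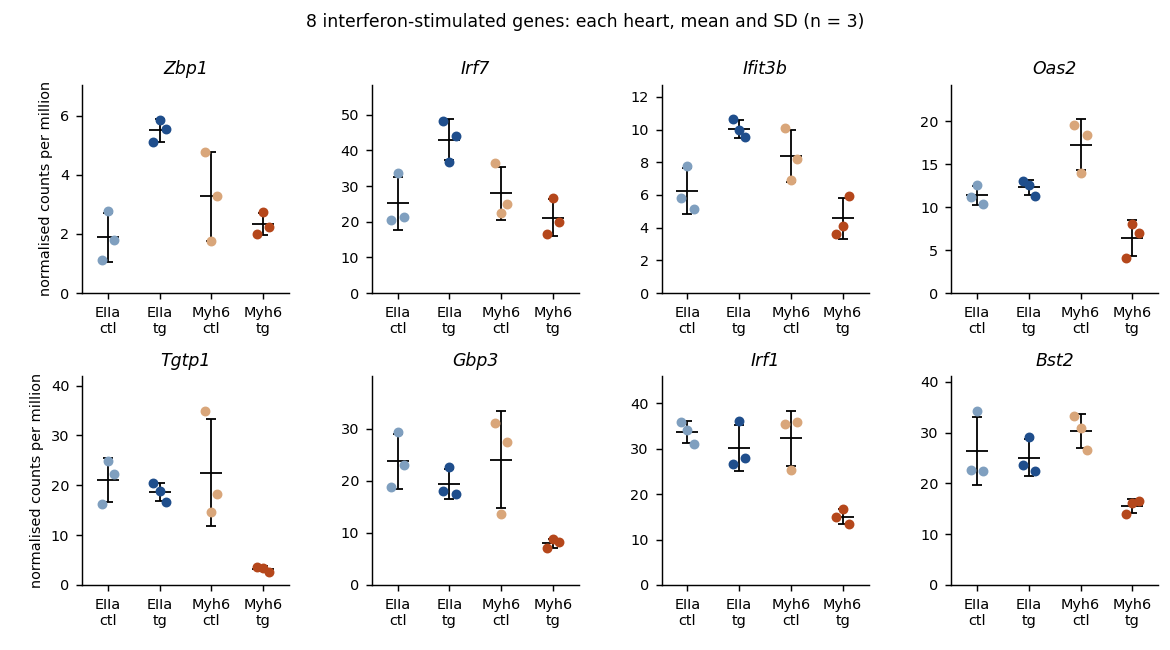
Normalised CPM of 8 interferon-stimulated genes in each heart (points) by group, with the group mean (line) and SD (bar, n = 3). Zbp1, Irf7 and Ifit3b are highest in EIIa-tg hearts, and Tgtp1, Gbp3, Irf1, Bst2 and Oas2 are lowest in Myh6-tg hearts.

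The count of 15 also depended on single hearts. It ranged from 1 (Tgtp1) without Myh6-tg replicate 3 to 17 without Myh6-ctl replicate 2, and was 2 without Myh6-ctl replicate 1, 5 without Myh6-ctl replicate 3 and 4 without Myh6-tg replicate 2, while 38 to 43 members had lower values whichever heart was left out. Of all genes, 471 of 15713 fell without Myh6-tg replicate 3 and 913 of 15921 without Myh6-ctl replicate 2. The numbers were 411 of 15931, 949 of 15863 and 486 of 15753 in the other 3 of these fits, in the order given. Tgtp1 passed under all 16 alternatives, with log2 fold changes from -3.04 to -1.72.

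Of 13 markers of leukocytes and macrophages 10 had higher and 3 lower values in Myh6-tg hearts, and 0 passed. Their summed levels were 1008 to 1643 CPM in Myh6-ctl and 1189 to 2628 CPM in Myh6-tg. Monocyte markers summed to 16.4 to 23.15 and 15.9 to 68.3 CPM, and neutrophil markers to 2.54 to 17.15 and 8.03 to 23.7 CPM. Dendritic cell markers summed to 88.8 to 117 and 83.7 to 92.6 CPM, and 0 passed in any of these 3 lists. Cardiomyocyte markers summed to 35180 to 47370 CPM and 11340 to 35960 CPM with 5 of 10 fallen, fibroblast markers to 1911 to 2405 and 2568 to 6098 CPM with 3 of 7 risen, and endothelial markers to 658 to 1393 and 698 to 864 CPM. Of the 8 endothelial markers 1 had risen and 0 had fallen, while 6 had lower values. Their log2 fold changes ran from -1.65 to 1.07, with a median of -0.49. B cell markers were at 1.52 to 3.86 CPM and 0.577 to 1.69 CPM with 1 of 4 fallen, and T and NK cell markers at 3.21 to 8.65 and 2.33 to 4.56 CPM. The part of cardiomyocyte, endothelial, fibroblast, lymphocyte, macrophage and other leukocyte content in the fall of the GTPases was not tested.

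The change in Myh6 hearts minus the change in EIIa hearts was then tested over all 12 hearts. It was negative for 45 of 45 members, with a median of -0.84 on the log2 scale against -0.04 over all genes, of which 52.9% were negative and 47.1% positive. A total of 3 members passed, all negative (edgeR, adjusted p under 0.05 over 15929 genes), where 2.27% of all genes were called negative and 1.65% positive. Tgtp1 differed by -2.63 (SE 0.41, adjusted p = 0.00739), Oas2 by -1.56 (SE 0.32, adjusted p = 0.0209, and 0.0565 with the replicate block) and Ifit3b by -1.56 (SE 0.33, adjusted p = 0.0218). The 3 genes differed in how this came about. Tgtp1 was at 16.2, 24.8 and 22.2 normalised CPM in EIIa-ctl and 20.4, 18.9 and 16.7 in EIIa-tg, overlapping and with no call there. Oas2 was likewise at 11.1, 12.6 and 10.4 and at 13.0, 12.6 and 11.3 in the EIIa hearts. Ifit3b had risen in EIIa-tg and had a negative value in Myh6-tg. Tgtp1 alone met the study's threshold, as did 0.339% of all genes, and it passed under all 21 alternatives.

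Other members had differences that did not pass. Zbp1 differed by -2.03 (SE 0.54, adjusted p = 0.0597), Isg15 by -1.88 (0.0570), Oas1a by -1.54 (0.0502), Igtp by -1.18 (0.0534, and 0.0341 with the replicate block), Irf7 by -1.18 (0.0901) and Irf1 by -0.94 (0.0534). Those of Irf9 (-0.81) and Stat2 (-0.75) had adjusted p-values of 0.176 and 0.189, and the smallest was that of Mx2 (-0.02). At an unadjusted p under 0.05, 27 members were negative, as were 10.8% of all genes, while 8.59% of all genes were positive. The number that passed was 1 to 11 with 1 heart left out, 11 without Myh6-ctl replicate 2, 7 without EIIa-ctl replicate 2 and 6 without Myh6-tg replicate 1. It was 1 without any of EIIa-ctl replicate 1, EIIa-ctl replicate 3, EIIa-tg replicate 1 or EIIa-tg replicate 2, and 2 without Myh6-tg replicate 2. Of all genes, 362 of 16406 were called negative without Myh6-ctl replicate 2 and 209 of 16517 without EIIa-ctl replicate 2. Without Myh6-tg replicate 1 there were 1081 of 16337, and without Myh6-tg replicate 2 there were 269 of 16336.

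A further 9 members with values in every Myh6 heart above overlapped between the EIIa groups, unlike Iigp1 and Irf7. In EIIa-ctl and then EIIa-tg hearts, Gbp3 was at 18.9 to 29.4 and 17.5 to 22.7 normalised CPM, Irgm2 at 28.4 to 43.0 and 25.2 to 39.7, and Igtp at 16.9 to 25.8 and 18.1 to 25.3. Irf1 was at 31.1 to 35.9 and 26.6 to 36.0, Irf9 at 24.9 to 34.4 and 24.5 to 33.2, and Stat2 at 19.8 to 22.1 and 17.8 to 23.0. Bst2 was at 22.4 to 34.2 and 22.4 to 29.2, Oas1a at 5.12 to 10.1 and 8.01 to 9.96, and Mx1 at 0.598 to 1.49 and 1.36 to 1.43.

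**Figure D3:**
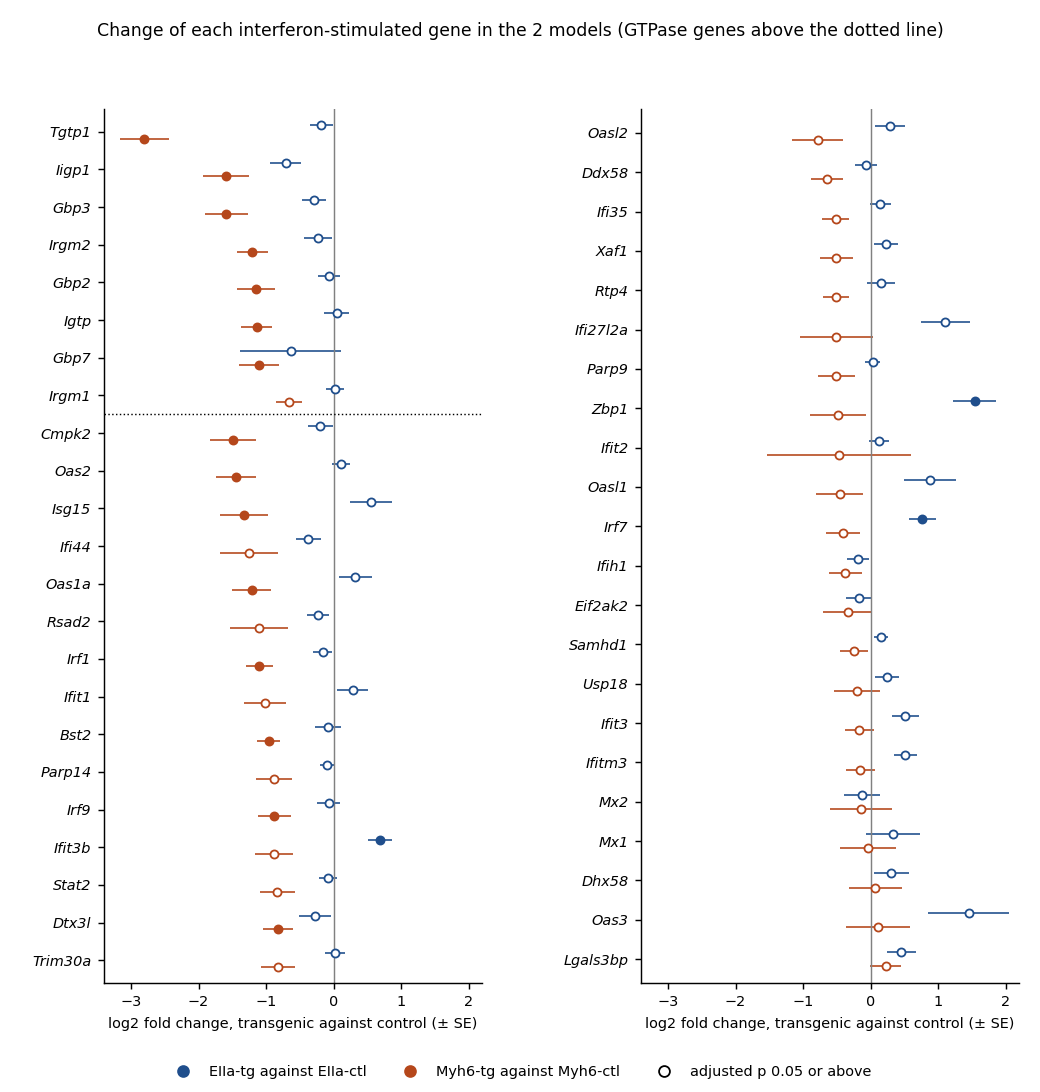
Log2 fold change with its standard error (bars) for each of the 45 members, in EIIa-tg against EIIa-ctl (blue) and in Myh6-tg against Myh6-ctl (red), with the GTPases above the dotted line. Filled points passed the test, and the point of the Myh6 comparison lies left of that of the EIIa comparison for all 45 genes, farthest for Tgtp1.

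The controls of the 2 models differ in age, Cre line and oil injection, which cannot be told apart. In Myh6-ctl against EIIa-ctl hearts 32 members had higher and 13 lower values (52% and 48% of all genes, median 0.11 on the log2 scale against 0.02 over all genes), and 0 passed by edgeR or DESeq2, where 0.02% of all genes were called higher and 0.0133% lower by edgeR. At an unadjusted p under 0.05 there were 2 members, both higher, against 6.45% of all genes higher and 4.89% lower. These were Oas2 (log2 difference 0.60, SE 0.18, adjusted p = 0.251), and Ifi27l2a (0.93, adjusted p = 0.409). Oas2 was the 1 member whose Myh6-ctl hearts all lay above the EIIa-ctl hearts (8.73% of all genes did, and 8.71% lay wholly below). Mx1 (0.78), Ifit3b (0.43) and Iigp1 (-0.48) followed. These controls are the ones used in the comparisons above, so that the values of these comparisons are not independent.

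Across the 4 groups, the Myh6-tg mean was the lowest for 37 of the 45 members, all 8 GTPases among them. The EIIa-ctl mean was the lowest for 7 (Zbp1, Ifi27l2a, Ifitm3, Lgals3bp, Mx1, Oas3 and Oasl1) and the Myh6-ctl mean for Dhx58. EIIa-tg had the highest mean for 20, Myh6-ctl for 15, EIIa-ctl for 9 and Myh6-tg for Lgals3bp. For Zbp1 the order was EIIa-tg (5.50 ± 0.380 normalised CPM, SD, n = 3), Myh6-ctl (3.27 ± 1.51), Myh6-tg (2.34 ± 0.382) and EIIa-ctl (1.89 ± 0.827), and the last 3 overlapped. For Tgtp1 it was Myh6-ctl (22.6 ± 10.8), EIIa-ctl (21.1 ± 4.41), EIIa-tg (18.6 ± 1.85) and Myh6-tg (3.23 ± 0.480), and the 3 highest overlapped.

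The interferons themselves were hardly measurable. Of 21 ligand genes 17 had 0 counts in every heart, among them Ifnb1 and Ifng, and none passed the filter on low counts. The highest value was 0.134 CPM for Ifnz, and Ifna2 reached 0.0795, Ifnab 0.0651 and Ifna15 0.0189 CPM. At this depth a ligand with no counts could still be present at up to 0.0589 to 0.0782 CPM in a heart, for counting error only.

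Of the subunits of the interferon gamma receptor, Ifngr2 fell in both models and Ifngr1 rose in Myh6-tg hearts. Ifngr2, the signalling subunit, was at 215, 176 and 225 normalised CPM in EIIa-ctl and 111, 162 and 112 in EIIa-tg hearts (log2 fold change -0.68, SE 0.17, adjusted p = 0.0350). In Myh6-ctl it was at 127 to 141 and in Myh6-tg at 65.9, 49.3 and 45.9 (log2 fold change -1.34, SE 0.19, adjusted p = 0.00596). Neither model's groups overlapped, and the difference between the models did not pass (-0.66, adjusted p = 0.191). Ifngr1, the ligand-binding subunit, was at 91.8, 86.7 and 91.4 in Myh6-ctl and at 168, 192 and 205 in Myh6-tg (log2 fold change 1.07, SE 0.17, adjusted p = 0.00795). In the EIIa hearts it was at 75.9 to 87.6 and 89.5 to 104 (0.19, adjusted p = 0.206), and its change differed between the models by 0.87 (SE 0.17, adjusted p = 0.0183, and 0.0568 with the replicate block).

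Il10rb, a subunit shared by the lambda interferon and interleukin-10 receptors, fell in both models, by 0.40 (SE 0.11, adjusted p = 0.0433) in EIIa-tg and by 1.23 (SE 0.30, adjusted p = 0.0287) in Myh6-tg. The type I receptor genes had small changes that did not pass. Ifnar1 was at 28.9 to 31.5 normalised CPM in EIIa-ctl, 26.6 to 30.9 in EIIa-tg, 23.5 to 35.0 in Myh6-ctl and 29.2 to 33.7 in Myh6-tg, and Ifnar2 had log2 fold changes of 0.11 and 0.22. Ifnlr1 stayed at 1.87 to 5.94 over all 12 hearts.

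Ifngr1 and Ifngr2 passed in the same direction in the Myh6 comparison under all 16 alternatives. In the EIIa comparison Ifngr2 no longer passed without EIIa-ctl replicate 1 (adjusted p = 0.115), EIIa-ctl replicate 3 (0.124), EIIa-tg replicate 1 (0.112) or EIIa-tg replicate 3 (0.118). Without Myh6-tg replicate 1 its difference between the models was -0.84 (adjusted p = 0.0492).

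Socs3, an inhibitor of JAK kinases that is induced by interleukin-6 type cytokines, rose in EIIa-tg and was the gene called there among 9 genes of JAK-STAT signalling and its inhibitors. It was at 3.76, 5.34 and 3.61 normalised CPM in EIIa-ctl and 18.2, 9.06 and 15.2 in EIIa-tg (log2 fold change 1.73, SE 0.27, adjusted p = 0.0166). In the Myh6 hearts it was at 9.68, 9.92 and 17.7 and at 50.1, 15.3 and 13.7, with 1 high Myh6-tg heart (1.08, adjusted p = 0.187). The other genes with the lowest p did not pass: Ptpn6 (0.63) and Stat3 (0.30) in EIIa-tg, Stat3 (0.55) and Ptpn11 (0.61) in Myh6-tg.

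**Figure D4:**
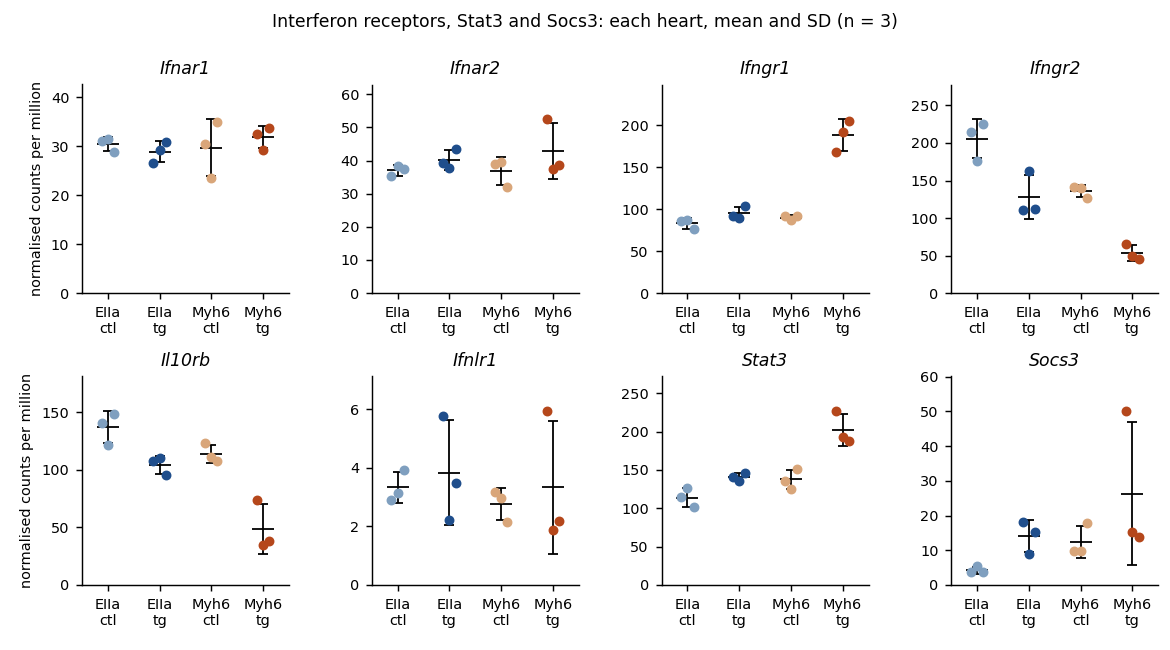
Normalised CPM of interferon receptor genes, Stat3 and Socs3 in each heart (points) by group, with the group mean (line) and SD (bar, n = 3). Ifngr1 is at 168 to 205 in Myh6-tg hearts and at 75.9 to 104 elsewhere, and Ifngr2 is at 45.9 to 65.9 in Myh6-tg hearts and at 111 to 225 elsewhere.

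Of 21 genes that induce interferon, 5 rose and 1 fell in EIIa-tg hearts, where 8.65% of all genes rose and 8.3% fell. The endosomal RNA receptor Tlr7 (log2 fold change 0.93), the adaptor Ticam1 (0.84) and the kinase Ikbke (1.67) rose, with adjusted p-values of 0.0221, 0.0208 and 0.0227, as did Myd88 and Unc93b1. Mavs, the mitochondrial adaptor of RIG-I, fell by 0.78 (adjusted p = 0.0176). In Myh6-tg Tlr7 rose (1.50, adjusted p = 0.0173) and no other passed, with Mavs at -0.87 (adjusted p = 0.0543).

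A list of 60 further interferon-stimulated genes, of which 57 were tested, was chosen with earlier results of these data known. It is therefore not independent of the result of the members. Its genes Tgtp2 and Oas1g could also share reads with members. They hold 80.0% of the 100-base words of Tgtp1 and 40.9% of those of Oas1a. In Myh6-tg hearts 14 of the 57 fell and 1 rose, 45 had lower values, and 27 lay wholly below the controls. The median log2 fold change was -0.73. Of all genes 9.38% fell, 8.96% rose and 19.6% lay wholly below. The lowest p-values were those of Tgtp2 (-2.68, adjusted p = 0.00332), Gbp5 (-2.19, adjusted p = 0.00662) and the DNA-binding gene Mndal (-1.26, adjusted p = 0.0112), and Trafd1, an inhibitor of innate signalling, was the gene that rose (0.92, adjusted p = 0.0126; named after its values were seen). In EIIa-tg hearts 7 rose and 3 fell, with a median of 0.09, near the 8.65% and 8.3% of all genes. Ms4a4c, a membrane protein of monocytes, rose from 0.569, 0.339 and 0.245 to 2.15, 1.89 and 1.67 normalised CPM (log2 fold change 2.28, adjusted p = 0.0185), and Ifi205, a gene of the interferon-inducible DNA-binding family, from 14.7, 9.75 and 5.06 to 55.5, 18.4 and 35.3 (1.87, adjusted p = 0.0310). In the test of the difference 10 of 59 were called, all negative, against 2.27% of all genes, and the controls gave 0 calls, with 42 higher in Myh6-ctl.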

How the data were processed

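RNA of 12 mouse hearts was sequenced as 150 bp paired-end reads. The authors deposited raw counts per gene, which are whole numbers, and FPKM values, scaled by the authors to transcript length and library size. HISAT2 2.0.4 and StringTie 2.2.1 are named in the submitters' processing notes, with builds GRCm39 and mm10. The paper gives GRCm38, used here for positions (GENCODE M21). Whether counting used strand is not given in the sources used here. The members and gene lists were chosen with earlier results of these data known.

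Counts were tested in R 4.3.3 with edgeR 4.0.16 (filterByExpr, TMM, quasi-likelihood F test, Benjamini-Hochberg adjustment over all genes tested, 2-sided), and a gene passed at an adjusted p under 0.05. Each transgenic group was set against its own controls, and the difference between the models was an interaction contrast over all hearts. Alternatives were DESeq2 1.42.0, other filters and scalings, limma 3.58.1 on log2(FPKM + 1) and log2(FPKM + 0.1), the replicate block, and each heart left out. The fits were tested on simulated data with log2 changes of 1 and 2. At an adjusted p under 0.05 edgeR found 63% and 83% of them in the EIIa comparison and 2% and 49% in the Myh6 comparison. For the difference between the models it found 3% and 57%, and for the controls 41% and 86%. Many planted changes thus missed the threshold, most of all in the Myh6 comparison and the difference. Far fewer genes were changed in the simulations than were called in either transgenic comparison, which makes the adjusted threshold stricter. These shares therefore do not carry over to the hearts, where true changes can still be missed. Values in every heart were given for the 5 members with the lowest p in each comparison, for members at the study's threshold, for the 3 with the highest FPKM and for the transcription factors. List genes were named as ligands or receptors or among the 4 lowest p. Floors cover counting error only, while ranges run over separate hearts or over fits with a heart left out. Deviations of hearts with the same replicate number correlated at 0.264, 0.22 and 0.248 in the Myh6 groups, each highest with its own number. The main fits left this pairing out, and only the replicate block, an alternative, took these numbers as pairs. A withheld item is not reported here.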

Additional observations from a re-analysis of the deposited data

Results flagged for a closer look

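The results in this part stood out because the change in Myh6 hearts differed from the change in EIIa hearts in the test of that difference (edgeR, all 12 hearts, adjusted p under 0.05), and they are given as the Myh6 change minus the EIIa change on the log2 scale. Among the 45 members these were Tgtp1 (-2.63), Oas2 (-1.56) and Ifit3b (-1.56). Among receptor genes it was Ifngr1 (0.87). Among the further interferon-stimulated genes the guanylate-binding proteins Gbp5 (-1.88) and Gbp6 (-2.26) and the GTPase Tgtp2 (-2.26) stood out in this way. So did the interferon-inducible DNA-binding genes Ifi203 (-1.26), Ifi205 (-2.40) and Mndal (-1.24), and Herc6 (-1.30), Trim34a (-1.26), Parp10 (-1.16) and Ms4a4c (-3.08). For Ms4a4c and Ifi205 a rise had been called in EIIa-tg hearts, and for Tgtp2, Gbp5 and Mndal a fall in Myh6-tg hearts.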

How the results depend on the processing

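The number of members that rose in EIIa-tg (3) was 0 at the study's threshold (which 0 of 14908 genes met), in 1 fit of all 12 hearts, with the replicate block and with limma on log2(FPKM + 1) without a filter, 5 with total counts or DESeq2 and 6 with limma on log2(FPKM + 1), and 0 to 10 with 1 heart left out. Over all genes, 2531 of 14908 rose in EIIa-tg with total counts and 1777 of 19490 with DESeq2. With limma on log2(FPKM + 1) 2323 of 12681 rose, and in 1 fit of all hearts 176 of 15929. The number that fell there (0) was 1 with DESeq2 and 0 to 1 with 1 heart left out. The number that fell in Myh6-tg (15) was 1 at the study's threshold, 4 with total counts, 24 in 1 fit of all hearts, 23 with DESeq2, 5 with limma on log2(FPKM + 1), 2 with limma at a pseudocount of 0.1 and 2 with limma and no filter, and 1 to 17 with 1 heart left out. Of all genes, 314 of 15298 fell at the study's threshold, 854 of 15298 with total counts and 2574 of 15929 in 1 fit. With DESeq2 2055 of 20052 fell, and with limma on log2(FPKM + 1) 909 of 12947. At a pseudocount of 0.1 limma gave 822 of 12947, and with no filter 806 of 20052. The number with a lower change in the Myh6 model (3) was 1 at the study's threshold, with total counts, with a pseudocount of 0.1 and with limma without a filter, 5 without a filter on counts, 6 with a minimum of 1 CPM in 3 hearts, 14 with DESeq2, and 1 to 11 with 1 heart left out. Of all genes, 54 of 15929 were called lower at the study's threshold, 248 of 15929 with total counts and 796 of 20798 with DESeq2. A pseudocount of 0.1 gave 213 of 13545, and limma without a filter 220 of 20798. No filter on counts gave 357 of 20798, and the minimum of 1 CPM 376 of 13643. The cause of these shifts was not tested. The controls gave 0 calls throughout.

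With the replicate block 12 members fell in Myh6-tg and 3 differed between the models. Same-numbered hearts showed no such pairing in the EIIa comparison (correlations of 0.136, -0.138 and -0.114), where the block left 0 members and 1 gene in all. Nor did they among the controls (0.147, 0.071 and -0.0971). In the test of the difference the block paired the EIIa hearts by number as well, so its values there also rest on those pairs. Of the values of single genes under alternatives, 412 kept their side of the threshold, 147 were no longer past it, 18 newly passed and 0 changed direction past the threshold.

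Low members (Oas3, Mx1, Mx2 and Zbp1) have few counts and wider errors.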
